A study of Mus musculus with 8 samples.

Results

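The 10 genes described here, Egr1, Egr2, Egr3, Nr4a1, Nr4a3, Nab2, Cd69, Cd5, Itm2a and Dusp2, are induced in thymocytes when the T-cell receptor is engaged, and they are widely used as a readout of positive selection. They were chosen by name, and every probe set whose single gene symbol in the platform annotation is one of the 10 was taken. This gave 15 probe sets for 10 of the 18193 genes with such a probe set on the array. RNA was measured on Affymetrix mouse arrays, 1 array per mouse, from double-positive (CD4+ CD8+) thymocytes, a stage before T cells mature.

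The c-Myb deficient group (titled Mutant) held 4 mice, and the c-Myb sufficient group (titled Control) also held 4. All mice were 4 to 5 weeks old and carried Cd4-Cre, in which the Cd4 promoter drives the Cre recombinase from about the double-positive stage on, and all were Tcra-/-. Without the T-cell receptor alpha chain the cells cannot make the alpha-beta receptor and are not positively selected, so the genes are read here in cells before selection in both groups. The source names give the deficient mice as Mybf/w and the sufficient mice as Mybf/f. With Cre, f/f is the genotype that loses both copies, so the source names run against the titles and the genotype field. The groups are called by their titles and genotype field throughout, and each log2 difference is deficient minus sufficient. The cells were enriched with an antibody against CD4 on magnetic columns, which also retains any other CD4+ cell. Since the labels call the samples biological replicates, the SDs describe mice.

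Positive selection starts when the receptor of a double-positive thymocyte binds self peptide on MHC. The signal runs through the kinases Lck and Zap70, then through Ras and ERK and through calcium and calcineurin to NFAT. ERK activates serum response factor and its partners at the promoters of the immediate early genes. The Egr zinc finger factors and the Nr4a orphan nuclear receptors are among the first genes induced. Nab2 binds Egr proteins and limits them, and Dusp2 is a phosphatase that inactivates MAP kinases. The surface proteins CD69 and CD5 and the membrane protein encoded by Itm2a follow, and CD5 also dampens the receptor's own signal.

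Each array had been scaled to the same trimmed mean, so a difference in total RNA per cell is not seen, and in sorted bulk cells fewer expressing cells and less RNA per cell cannot be told apart. A signal below 33.8, the median of the whole table, is called dim. The defining markers of the cells were bright: Cd8a read 9755 to 11951 on deficient and 10198 to 11546 on sufficient arrays, Cd4 3390 to 3971 and 3228 to 4908, and Rag1, a recombinase gene, 10667 to 11069 and 10569 to 12221. A second Cd4 probe set read lower on every deficient array, with 1004 to 1729 on deficient and 1899 to 2046 on sufficient arrays (log2 difference -0.46, adjusted p = 0.102 over probe sets). The 1 probe set annotated Tcra was dim on all 8 arrays. Myb, the targeted gene, was not lower on deficient arrays, with 10512 to 11754 against 8327 to 10388 on sufficient arrays (log2 difference 0.28 ± 0.08 SE, adjusted p = 0.0619). Of its 2 other probe sets, 1 passed as higher in the fit over probe sets (0.36, adjusted p = 0.0327) and the other differed by 0.04. The floxed exons could not be set against the probes here, so Myb does not check the genotype. Xist, the RNA of the inactive X chromosome, was high on all 4 deficient arrays (4129 to 5736) and on sufficient replicate 1 (4358.5), and 23.4 to 36.7 on the other sufficient arrays. Sex inferred from Xist therefore goes largely with the groups. The 18S rRNA control probe set stood apart on deficient replicate 4, at 7143 against 676 to 1459 on the other arrays, while the 3' to 5' ratio of actin lay between 1.18 and 1.31 on all arrays. For the 6 tested genes the difference without deficient replicate 4 and without sufficient replicate 1 is given beside the result.

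Of the 10 genes, 6 had a probe set past the filter on dim signals, which asked for a signal over 33.8 on at least 4 of the 8 arrays. Of these 6, Itm2a rose, Egr1 fell, and Nr4a1, Dusp2, Cd69 and Cd5 did not pass the test (limma, Benjamini-Hochberg adjusted p under 0.05 over 9941 genes). That is 1 of 6 higher, where 5.89% of all tested genes were higher, and 1 of 6 lower, where 4.08% were lower. In total 9.98% of tested genes changed. The median log2 difference of the 6 was 0.40, against 0.02 over all tested genes. The other 4 genes, Egr2, Egr3, Nr4a3 and Nab2, with 8 probe sets, did not pass the filter and were not tested. The genes did not move as a block, since the differences of the 6 ran from -0.60 for Egr1 to 0.69 for Itm2a.

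**Figure D1:**
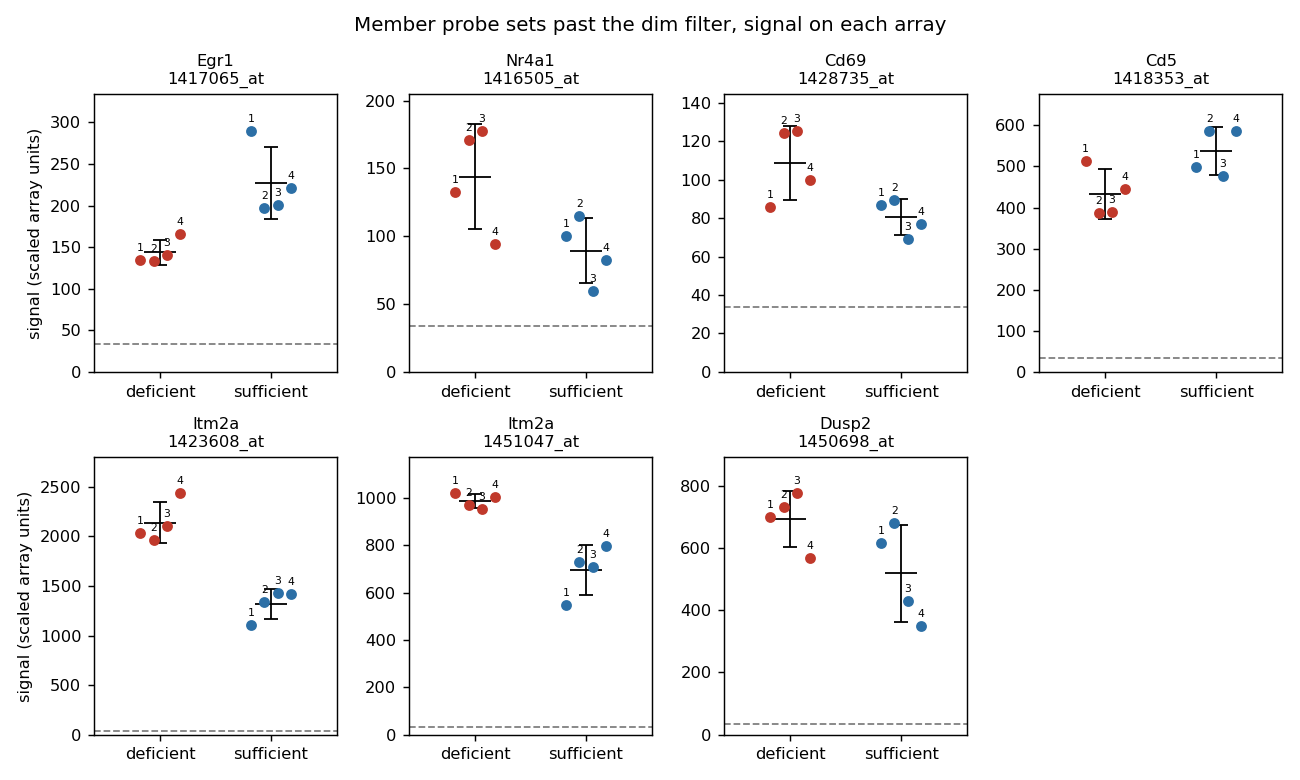
Signal (scaled array units, linear axis from 0) of the 7 probe sets of the 6 tested genes on each array, deficient arrays left and sufficient arrays right. Numbers are replicates, the horizontal mark and bar are the mean ± SD of 4 mice, and the dashed line is the dim limit of 33.8. The groups do not overlap for Egr1 and for both Itm2a probe sets, and they overlap for Nr4a1, Cd69, Cd5 and Dusp2.

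Itm2a encodes a type II integral membrane protein that is induced during positive selection, and it lies on chromosome X. Its brighter probe set, 1423608_at, read 2038, 1967, 2106.5 and 2432 in deficient replicates 1 to 4, against 1102, 1340, 1425 and 1420 in sufficient replicates 1 to 4. All deficient arrays lay above all sufficient arrays, a position shared by 17.0% of tested genes when both directions are counted. The means were 2136 ± 206 and 1322 ± 152 (SD, n = 4 each), a log2 difference of 0.69 ± 0.10 (SE), or 1.61-fold, with an adjusted p of 0.00235. The other probe set, 1451047_at, read 1018, 970, 953 and 1001 on deficient arrays and 550, 727, 707 and 796 on sufficient arrays. Here too the groups were apart, by 0.51 ± 0.11 with an adjusted p of 0.0284 in limma over 22599 probe sets, of which 5.82% changed. In that fit 2 of the 7 probe sets of the 10 genes were higher (3.14% of all probe sets) and 1, that of Egr1, was lower (2.68%). The probe sets therefore gave the same direction at different sizes.

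Sufficient replicate 1, the sufficient array with high Xist, had the lowest Itm2a signal of its group on both probe sets. Adjustment for Xist coded each array only by whether its Xist signal was over 1000. This leaves that single sufficient array to set against the deficient ones. The log2 difference of Itm2a was then 0.94 ± 0.14 on the brighter probe set and 0.82 ± 0.14 on the other. In the 8 fits that each left out an array, the difference of the brighter probe set lay between 0.60 and 0.73 with limma adjusted p from 0.00423 to 0.0087. The fit without deficient replicate 4 gave 0.62, and that without sufficient replicate 1 gave 0.60. The second probe set kept its size, 0.40 to 0.57, but its adjusted p was 0.0649 to 0.0826 without deficient replicate 1, 2 or 3 or sufficient replicate 3. With all arrays the second probe set also did not pass after adjustment for Xist, although its difference was larger. Nor did it pass with median centring or without a variance trend (limma adjusted p = 0.0859 and 0.0549).

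The 250 bases before the RefSeq transcription start are shown for Itm2a, the gene that rose, and for Nr4a1 and Dusp2, because motifs of the factors at issue occur in them (GRCm38.p6, promoters of 7 of the 10 genes were in the RefSeq table). Capitals mark matches on either strand to the Myb core motif, searched as CAACNG and TAACNG, and to the Egr family motif GCGNGGGCG; no matches overlapped. The Itm2a stretch is chrX:107403361-107403610 (minus strand), that of Nr4a1 is chr15:101266596-101266845 (plus strand), and that of Dusp2 is chr2:127335909-127336158 (plus strand).
Itm2a: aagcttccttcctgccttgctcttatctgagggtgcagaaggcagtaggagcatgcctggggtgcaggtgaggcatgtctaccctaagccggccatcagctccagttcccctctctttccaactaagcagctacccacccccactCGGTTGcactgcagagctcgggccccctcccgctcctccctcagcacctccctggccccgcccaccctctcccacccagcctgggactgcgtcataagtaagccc
Nr4a1: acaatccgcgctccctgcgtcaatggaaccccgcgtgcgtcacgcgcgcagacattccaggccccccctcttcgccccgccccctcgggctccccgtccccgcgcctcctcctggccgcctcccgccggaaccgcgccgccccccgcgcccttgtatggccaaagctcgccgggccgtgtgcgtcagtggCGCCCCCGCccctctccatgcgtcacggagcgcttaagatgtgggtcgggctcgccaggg
Dusp2: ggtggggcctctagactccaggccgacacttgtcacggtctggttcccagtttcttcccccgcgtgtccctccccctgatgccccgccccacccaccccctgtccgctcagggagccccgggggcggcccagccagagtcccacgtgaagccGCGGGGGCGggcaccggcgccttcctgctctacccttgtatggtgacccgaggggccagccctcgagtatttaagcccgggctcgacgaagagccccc
In Itm2a the Myb motif begins 105 bases before the start, on the strand opposite the gene. A match to either form of it was found in 43.1% of all 32851 promoter stretches of this length, so it is common. The Egr motif begins 60 bases before the start in Nr4a1, on the opposite strand, and 98 bases before it in Dusp2, on the gene's strand. It was found in 4.7% of all stretches. Among the other promoters searched, Nab2 and 1 of 5 listed starts of Egr2 held a Myb match, and those of Nr4a3 and Cd5 held no match to these letters. A match is a description of the sequence and not a measured binding site.

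Egr1, the early growth response factor that links ERK activity to later genes of selection, was lower on deficient arrays. Its only probe set, 1417065_at, read 135, 134, 141 and 166 in deficient replicates 1 to 4 and 290, 197, 201 and 221 in sufficient replicates 1 to 4. Every deficient array lay below every sufficient array. The means were 144 ± 15.0 on deficient and 227 ± 43.4 on sufficient arrays (SD, n = 4 each), a log2 difference of -0.60 ± 0.14 (SE), or 0.662 times the sufficient level, with an adjusted p of 0.0215. The call rested on few arrays: without deficient replicate 1, 2 or 3 the difference was -0.57, -0.57 and -0.59 and the limma adjusted p 0.0645, 0.0701 and 0.0557. Over probe sets the call was kept in only 2 of the 8 fits that each left out an array. Sufficient replicate 1, the array with high Xist, also held the highest Egr1 signal. Without deficient replicate 4 the difference was -0.66 (adjusted p = 0.0164). Without sufficient replicate 1 it was -0.48 (adjusted p = 0.0491), and after adjustment for Xist it was -0.94 ± 0.18 (adjusted p = 0.081).

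The close relatives Egr2 and Egr3, which act beside Egr1 in selection, were dim. Egr2 read 0.8 to 16 on deficient and 1.9 to 16 on sufficient arrays with probe set 1427682_a_at, and 7.4 to 23.3 and 1.8 to 23.7 with 1427683_at. Egr3 read 10.0, 15.1, 10.1 and 8.5 on deficient arrays and 5.0, 6.7, 3.3 and 5.7 on sufficient arrays with probe set 1421486_at. These Egr3 groups do not overlap, but every value lies below the dim limit, so no fold is given. The second Egr3 probe set, 1436329_at, read 7.7 to 12.9 and 3.0 to 8.9, and its groups overlapped. No difference of Egr2 or Egr3 could be measured at this signal.

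Nab2, the corepressor that Egr proteins induce and bind, lay around the dim limit. Its probe set 1417930_at read 31.4, 21.0, 60.7 and 25.9 on deficient arrays and 27.6, 30.7, 3.1 and 2.9 on sufficient arrays. Deficient replicate 3 was the 1 array above the limit. Its paralog Nab1, which was bright enough to test, averaged 849 on deficient and 715 on sufficient arrays, a difference of 0.24 with an adjusted p of 0.176.

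**Figure D2:**
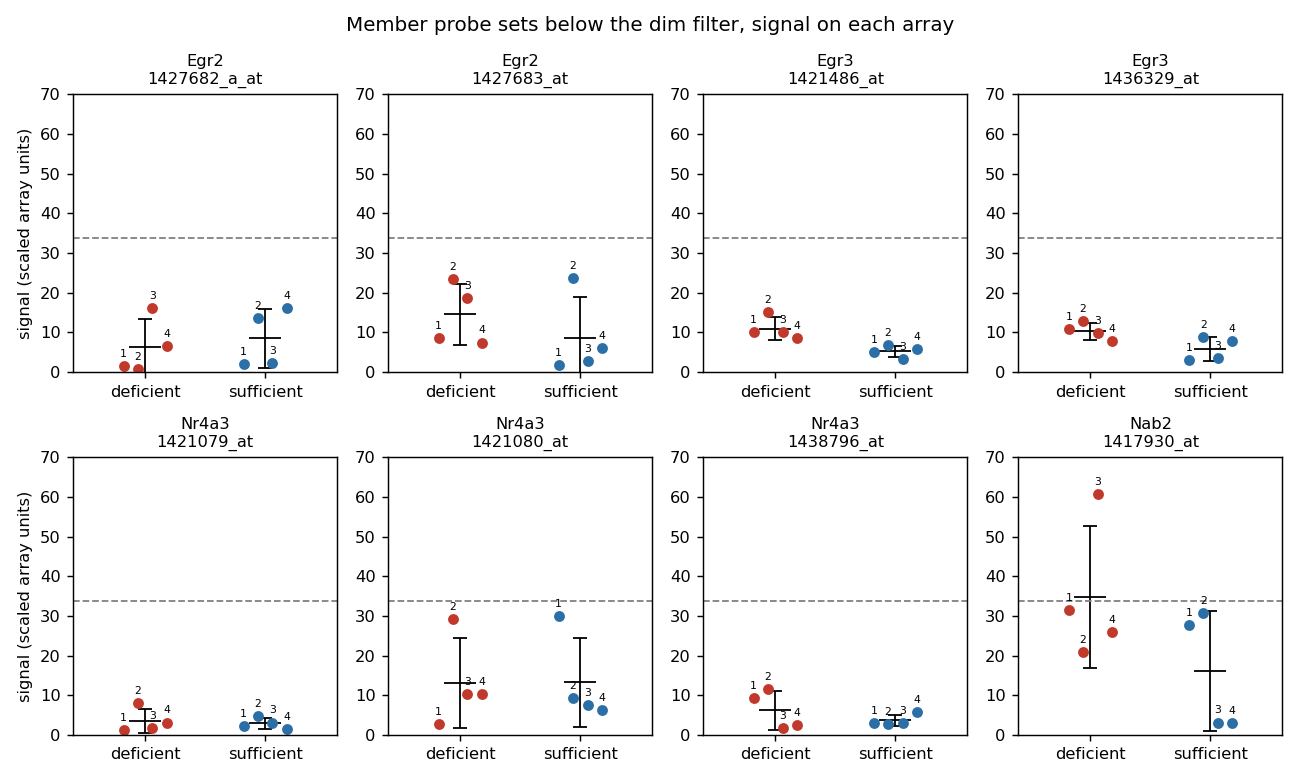
Signal (scaled array units, common linear axis) of the 8 probe sets of Egr2, Egr3, Nr4a3 and Nab2 on each array, deficient arrays left and sufficient arrays right, with replicate numbers, the mean ± SD of 4 mice and the dim limit of 33.8 as a dashed line. Deficient replicate 3 of Nab2, at 60.7, is the single value above the limit.

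Nr4a1, which encodes the nuclear receptor Nur77, scales with the strength of the receptor signal in thymocytes. Its probe set 1416505_at read 132, 171, 178 and 94.4 in deficient replicates 1 to 4 and 100.5, 115, 59.5 and 82.3 in sufficient replicates 1 to 4. Deficient replicate 4 lay within the range of the sufficient arrays, and the other 3 deficient arrays lay above it. The means were 144 ± 38.7 and 89.4 ± 24.0 (SD, n = 4 each), and the log2 difference was 0.60 ± 0.22 (SE, 95% interval 0.12 to 1.08) with an adjusted p of 0.112, which did not pass. Without deficient replicate 4, the array with the high 18S signal, it was 0.77 with an adjusted p of 0.0349, and without sufficient replicate 1 it was 0.66 (adjusted p = 0.142). With array weights, which also down-weight single arrays, it was 0.79 (adjusted p = 0.0184), and after adjustment for Xist 0.42 ± 0.36 (adjusted p = 0.762).

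The family member Nr4a3, also an early target of the receptor, was dim on all 8 arrays with each of its 3 probe sets. The highest of its values were 29.3 on deficient replicate 2 and 29.9 on sufficient replicate 1, both with probe set 1421080_at, and the other probe sets read 1.2 to 11.6 on deficient and 1.4 to 5.8 on sufficient arrays. Nr4a2, the remaining member of the family, averaged 38.6 on deficient and 48.6 on sufficient arrays, close to the dim limit, with a log2 difference of -0.18 (limma adjusted p = 0.767).

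Dusp2, the nuclear phosphatase of ERK also called PAC1, was well above the dim limit in every mouse. Probe set 1450698_at read 698, 731, 774 and 567 in deficient replicates 1 to 4 and 616, 680, 429 and 350 in sufficient replicates 1 to 4. The groups overlap, since sufficient replicates 1 and 2 lay above deficient replicate 4. The log2 difference was 0.44 ± 0.19 (SE, 95% interval 0.02 to 0.87) and did not pass (adjusted p = 0.175). With array weights it passed (0.55, adjusted p = 0.0368), and after adjustment for Xist it was 0.16 ± 0.30 (adjusted p = 0.916). Dusp2 did not pass in any of the 8 fits without an array, where the difference lay between 0.28 and 0.59. It was 0.54 without deficient replicate 4 (adjusted p = 0.115), 0.54 without sufficient replicate 1 (adjusted p = 0.146) and 0.28 without sufficient replicate 4 (adjusted p = 0.35).

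CD69, a surface protein that appears within hours of receptor engagement and holds cells in the thymus, marks cells in selection. Its probe set 1428735_at read 85.8, 124, 126 and 99.7 on deficient arrays and 86.8, 89.3, 69.4 and 76.9 on sufficient arrays. Deficient replicate 1 fell among the sufficient arrays, and the other 3 lay above them. The means were 109 ± 19.4 and 80.6 ± 9.19 (SD, n = 4 each), with a log2 difference of 0.36 ± 0.15 (SE, 95% interval 0.02 to 0.70) and an adjusted p of 0.169.

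CD5, whose level on thymocytes follows receptor signal strength and which restrains that signal, leaned the other way. Probe set 1418353_at read 513, 386, 388 and 445 on deficient arrays and 498, 586, 476 and 587 on sufficient arrays. The overlap came from deficient replicate 1, which lay above sufficient replicates 1 and 3. The log2 difference was -0.30 ± 0.12 (SE, 95% interval -0.57 to -0.04) with an adjusted p of 0.139. Across the fits that left out an array, Cd69 and Cd5 did not pass in any, with adjusted p from 0.123 to 0.361 and from 0.0904 to 0.31. Without deficient replicate 4 their differences were 0.39 and -0.32, and without sufficient replicate 1 they were 0.39 and -0.34.

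All 6 tested genes had an unadjusted limma p under 0.05, as had 25.1% of all tested genes, and 4 of the 6 failed the adjustment. In the deficient group, replicate 4 had the lowest Nr4a1 and Dusp2 signals and the highest Egr1 signal, and the highest Itm2a signal on the brighter probe set, of the 4 mice. In the sufficient group, replicates 1 and 2 read higher than replicates 3 and 4 for Nr4a1, Dusp2, Cd69 and Nab2. The spread within groups was thus shared by several of these genes, and neither the 18S signal nor any other array property was tested as its source.

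**Figure D3:**
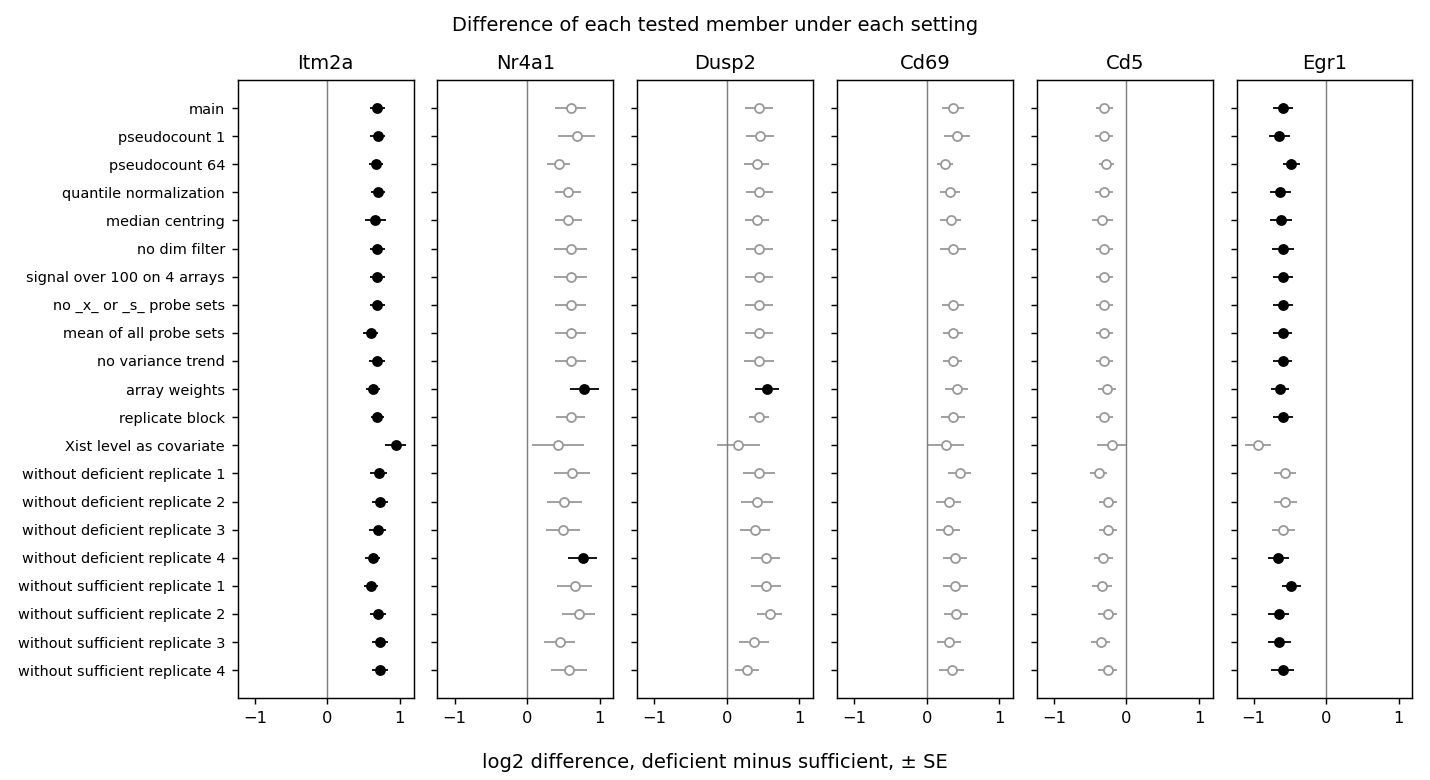
Log2 difference, deficient minus sufficient, ± SE of the 6 tested genes (columns) under the reported model and each alternative (lines, from top), with filled points where the adjusted p was under 0.05 and open points where it was not. Itm2a is filled on each line, Egr1 is open with the Xist level and without deficient replicate 1, 2 or 3, and Cd69 and Cd5 are open wherever they were tested. Cd69 has no point where a signal over 100 was required.

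The genes most like Itm2a and Egr1 were sought by the root mean square difference of log2 signals over the 8 arrays, each gene centred on its own mean. Nearest to Itm2a were Smyd5 (0.13), Ndufb1 (0.131) and Slc25a39 (0.134), of which Smyd5 did not pass the test (limma adjusted p = 0.0553). Slc25a39, a mitochondrial carrier gene, read 2444 ± 234 on deficient and 1594 ± 162 on sufficient arrays, and Ndufb1, a subunit gene of respiratory complex I, 157 ± 14.3 and 100.4 ± 15.0 (SD, n = 4 each). Nearest to Egr1 were Tlnrd1 (0.114), Ube2d1 (0.115) and E130308A19Rik (0.136). Of these, Tlnrd1 and E130308A19Rik did not pass (limma adjusted p = 0.12 and 0.057). Ube2d1, a ubiquitin-conjugating enzyme gene, read 688 ± 40.8 on deficient and 925 ± 135 on sufficient arrays. As with Egr1, sufficient replicate 1 was the highest array of Tlnrd1, Ube2d1 and E130308A19Rik. These genes were picked for their likeness to Egr1 over the same arrays, so the shared array adds no separate evidence.

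Other genes known to be induced by the receptor in T cells were taken as a list of 38, of which 30 could be tested. Of these, 6 rose, 4 fell and 20 did not pass, with a median log2 difference of 0.21, against 9.98% called and a median of 0.02 over all tested genes. The 4 largest rises, and that of Gimap4, each exceeded that of Itm2a in size. Ccr7, a chemokine receptor of maturing thymocytes, read 846, 784, 934 and 732 on deficient arrays and 111, 79.8, 31.4 and 18.1 on sufficient arrays, a log2 difference of 3.65 ± 0.34 (SE, adjusted p = 0.000154); 2 of the 4 sufficient arrays were dim. Il2ra, the alpha chain of the interleukin-2 receptor, differed by 3.20 ± 0.42, Cd53, a tetraspanin gene, by 2.88 ± 0.43 and Socs3, an inhibitor of cytokine signalling, by 1.89 ± 0.33. Cd53 differed by 1.38 on its other probe set. Gimap4 and Cd27 were the remaining rises, with differences of 1.66 and 0.35.

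The 4 falls in that list were named after their values were seen. Tnfaip3, the A20 inhibitor of NF-kappaB, averaged 745 ± 208 on deficient and 2034 ± 364 on sufficient arrays (SD, n = 4 each), a log2 difference of -1.45 ± 0.20. Cd6, a surface receptor related to CD5 and encoded beside it, averaged 629 ± 149 and 1232 ± 59.8, a difference of -0.98 ± 0.15 (limma adjusted p = 0.00221), while Cd5 itself was not called. The thymocyte factor Tox differed by -0.82 and Nfkbia, which encodes an NF-kappaB inhibitor, by -0.37. After adjustment for Xist 1 member of the list was called higher and 0 lower. Id3, the Egr target that inhibits E proteins, differed by 0.18 (adjusted p = 0.617), Myc by 0.39 (adjusted p = 0.134) and Irf4 by 0.87 (adjusted p = 0.0853).

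Genes that limit ERK and receptor signals were taken as a list of 20, of which 18 were tested, 2 rose and 1 fell, with a median of 0.12. That is 16.7% of those tested, against 9.98% of all genes. Spry1, a Ras-ERK inhibitor, read 134, 170, 242 and 139 on deficient arrays and 77.9, 109, 88.6 and 93.8 on sufficient arrays, a log2 difference of 0.76 ± 0.18 (SE, adjusted p = 0.0229). Dusp10, a phosphatase of p38 and JNK, differed by 0.39 ± 0.11 and Dgkz, which removes the diacylglycerol that activates RasGRP1, by -0.30 ± 0.05 (limma adjusted p = 0.0444 and 0.00638). Of the ERK phosphatases, Dusp5 differed by 0.07, Dusp6 by -0.04 and Dusp4 by -1.08 (adjusted p = 0.801, 0.902 and 0.065). The rises numbered 0 without deficient replicate 2 or sufficient replicate 3, 3 without deficient replicate 4 and 1 without any other single array, and the falls 1 to 2.

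Of 28 listed inputs to ERK, serum response factor and calcineurin, 22 were tested, 1 rose and 1 fell, a share of 9.09% against 9.98% of all genes. Nfatc3, the NFAT factor of double-positive cells, averaged 2183 ± 564 on deficient and 3637 ± 384 on sufficient arrays (SD, n = 4 each), a log2 difference of -0.76 ± 0.16 (adjusted p = 0.0118). Map2k1, the kinase MEK1 upstream of ERK, averaged 769 ± 68.7 and 580 ± 58.7, a difference of 0.40 ± 0.10 (adjusted p = 0.0342), and was not called without deficient replicate 1, 2 or 3 or sufficient replicate 2 or 3, while 2 genes of the list rose without deficient replicate 4. Srf, which encodes serum response factor, differed by -0.01 and Rasgrp1, the activator of Ras in thymocytes, by 0.17, neither past the test.

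Egr1 and Nr4a1 are also induced by handling of cells, so immediate early and stress genes were taken as a list of 21. Of 13 tested, 3 rose and 1 fell, a share of 30.8% against 9.98% of all genes, with a median log2 difference of 0.09. Fosl2, an AP-1 factor, read 707 to 1144 on deficient arrays and was dim on all sufficient arrays, so it was at least 26.3-fold higher (the mean log2 signal of deficient arrays against the dim limit, limma adjusted p = 7.7e-08). That bound is for 1 probe set, and the other Fosl2 probe set gave a log2 difference of 1.18. Jun, its AP-1 partner, averaged 271 ± 104 on deficient and 74.5 ± 5.69 on sufficient arrays, and the zinc finger gene Klf6 differed by 0.40. Dnajb1, a heat shock cochaperone, differed by -0.33, and 0 genes of the list were called lower in limma when deficient replicate 1, 2 or 3 or sufficient replicate 1, 2 or 3 was left out. The rises numbered 1 without deficient replicate 2 or 3. Ier2 and Junb, induced with Egr1 by the same stimuli, differed by -0.10 and -0.08 (adjusted p = 0.657 and 0.81), and Fosb and Atf3 were dim on all 8 arrays.

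**Figure D4:**
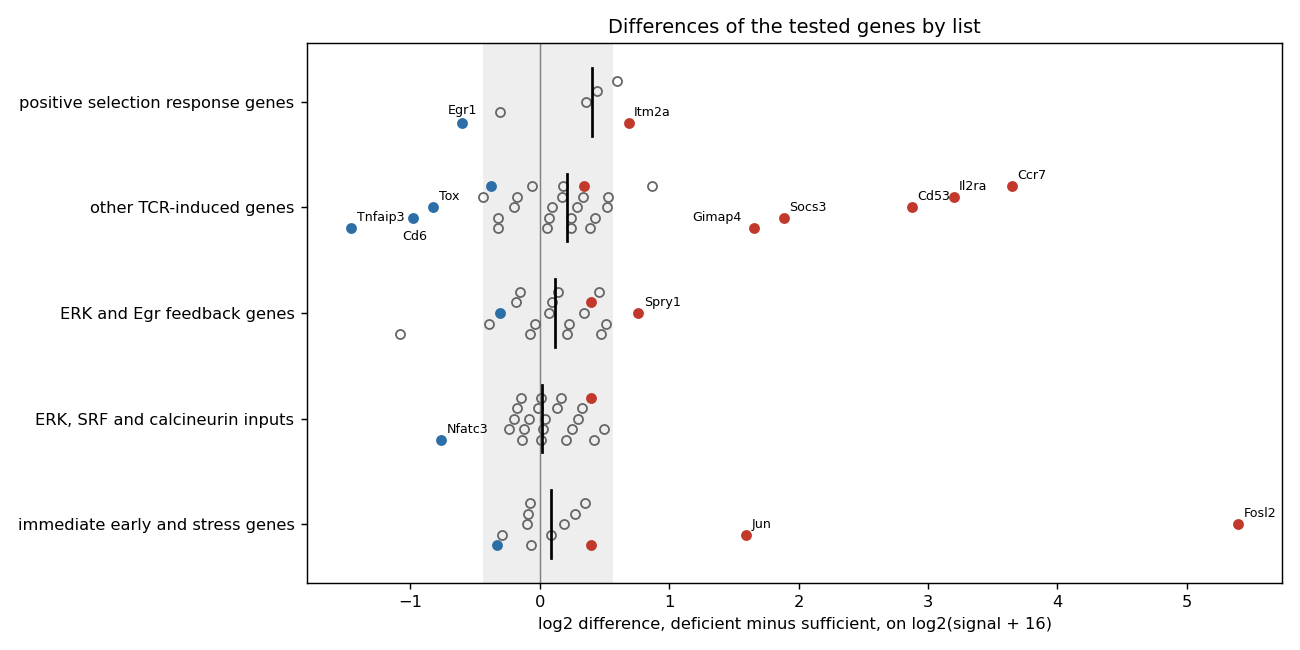
Log2 difference, deficient minus sufficient, on log2(signal + 16) for the tested members of each list, spread vertically for legibility. Red and blue points are genes that rose and fell in limma, open points did not pass, black marks are list medians, and the grey band holds the differences between the 5% and 95% points of all tested genes (-0.43 to 0.56).

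Markers of other stages and cells moved in part with the groups. Over all tested genes 5.89% were called higher and 4.08% lower. Of 6 tested mature single-positive markers 5 rose, namely Ccr7, Itgb7, Klf2, S1pr4 and S100a10, and the summed signal of the 7 with a probe set was 4726 to 5686 on deficient and 2509 to 3222 on sufficient arrays. Of 9 tested double-positive markers Arpp21, Cd1d1, Rag2 and Dntt fell and 5 did not pass, with a median log2 difference of -0.08. The summed signals of the 9 were 52052 to 56044 on deficient and 57885 to 61189 on sufficient arrays. Gzma rose among 5 tested markers of gamma-delta T, NKT or NK cells (sums of 11 markers 3291 to 4513 and 2135 to 2784), and Ncr1 and Zbtb16 were dim on all 8 arrays. Most of these sums was Gzma itself, at 2962 to 4066 on deficient and 1979.5 to 2400 on sufficient arrays. Ctss was the 1 call among 8 tested macrophage and dendritic cell markers, whose median log2 difference was -0.03 (sums of 13 markers 820 to 1131 and 481 to 974). Car2 was the 1 call among 2 erythroid markers (sums of 5 markers 1005 to 1479 and 264 to 478). Most of the deficient sums was Car2 itself, at 901 to 1346.5 on deficient and 120 to 279 on sufficient arrays. The hemoglobin gene Hba-a1 was dim on all 8 arrays.

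Of B cell, granulocyte and thymic stroma markers 0 passed in limma over all genes, with 1, 1 and 3 tested. Their brightest tested members were Cd79b, with a log2 difference of 0.25, S100a8 with 0.65 and Pecam1 with -0.36, and the unadjusted limma p was under 0.05 for S100a8 and Pecam1. Summed signals were 559 to 771 on deficient and 434 to 681 on sufficient arrays for B cells, 108 to 255 and 62.2 to 125 for granulocytes, and 584 to 835 and 811.5 to 871 for stroma. The part of these cell types in the differences of Itm2a and Egr1 was not tested.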

How the data were processed

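The deposited table holds a linear intensity, called signal, for each probe set on 8 arrays. The authors made it with the Affymetrix software GCOS, per the submitters' processing notes. Its settings and version were not at hand. The 2% trimmed mean of the deposited table was 250.0 on each array. Without the 64 controls among 45101 probe sets, 34945 had 1 symbol in the platform annotation, 932 had several and 9160 had none. Current symbols came from a match of 34741 to RefSeq GRCm38.p6.

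Signals were converted to log2(signal + 16), so folds of dim genes are understated. Probe sets over 33.8 on at least 4 of 8 arrays were kept, and each gene was represented by its brightest 1-symbol probe set. Groups were compared with limma 3.58.1 in R 4.3.3 (lmFit, eBayes with a trend, two-sided, Benjamini-Hochberg, 0.05) over 9941 genes, and over 22599 probe sets for further probe sets; all adjusted p-values come from it. The method was also run on simulated data, but no outcome of that run is given here, so it is no check on these results. The number of arrays limits the precision. Scan dates were not used here, and no batch could be examined.

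The members, lists, alternatives and naming rule were chosen with earlier results of these data known. The rule names the members, 5 check genes, up to 4 called members of each pathway list by size, called markers (else the brightest), and the 3 genes nearest to the largest rise and fall. Other genes with values (Nab1, Nr4a2, Gimap4, Cd27, Tnfaip3, Cd6, Tox, Nfkbia, Id3, Myc, Irf4, Dusp4, Dusp5, Dusp6, Srf, Rasgrp1, Ier2, Junb) were picked after their values were seen. Figures used Python 3.11.15 and matplotlib 3.10.9.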

Additional observations from a re-analysis of the deposited data

Results flagged for a closer look

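Of 106 groups of 4 arrays examined, 9 held an array far from the other 3 by Dixon's criterion, and chance gives about 1 in 20. Among the 10 genes, both cases were Nr4a3 probe sets with dim values: 1421080_at was at 29.9 in sufficient replicate 1, with the rest of that group at 6.2 to 9.3, and 1438796_at was at 5.8 in sufficient replicate 4, with the rest at 2.8 to 3.0. Sufficient replicate 1 also stood apart for Xist, at 4358.5 against 23.4 to 36.7, and for Ube2d1, at 1126.5 against 842 to 878, and E130308A19Rik, at 182.7 against 147 to 151, both of which were named for their likeness to Egr1. Sufficient replicate 4 stood apart for Ndufb1, at 122.9 against 91.8 to 94.2, and for S100a10, at 1898.4 against 2265 to 2328. For Dnajb1 it was sufficient replicate 2, at 4104.8 with the rest of its group at 3228 to 3354, and for Klf2 deficient replicate 3, at 234.8 with the rest at 139 to 153.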

How the results depend on the processing

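Itm2a kept its direction and its call in all 12 alternative settings and all 8 fits without an array. None of the 6 tested genes changed sign in any setting in which it was tested. Cd69 could not be tested where a signal over 100 was required. Without single arrays, the number of the 10 genes called higher lay between 1 and 2 and lower between 0 and 1, their probe sets called higher between 1 and 2 and lower between 0 and 1, and all genes changed between 494 and 1195. With array weights 3 of the 10 genes were called higher, with Nr4a1 and Dusp2 added, and 1745 genes changed. With the Xist level as a covariate 26 genes changed, 0 of the 10 were lower, and 0 of their probe sets were called higher and 0 lower; the group term then rests on 1 sufficient array. Over probe sets, 1 was called higher with median centring and 1 without a variance trend, where the second Itm2a probe set lost its call. Without the dim filter and with the replicate block 0 were called lower. With the replicate block 1035 genes changed, and over genes Egr1 (adjusted p = 0.0282) and Itm2a (adjusted p = 0.00173) kept their calls. The replicate numbers were not taken to pair mice, since deviations of same-numbered arrays correlated at -0.274 to 0.361 and 0 of 4 deficient arrays correlated best with their own number. Causes of these changes were not tested, except that array weights, the covariate and the fits without an array change how many arrays carry the estimate.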
